A study of Mus musculus with 8 samples.

Results

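The TRIM family genes of mouse embryonic fibroblasts were compared between cells labelled PUS10KO and control cells. The members were all genes of the deposited count table whose symbol was Trim followed by digits and optional letters, without Trim28, a chromatin corepressor. The rule used names and no measured value. It found 39 members among the 12211 genes of the table, and 37 of them had enough counts to be tested.

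TRIM proteins share a tripartite motif of a RING finger, 1 or more B-box zinc fingers and a coiled coil. The RING finger recruits an enzyme carrying ubiquitin, so most members act as ubiquitin ligases, and the C-terminal domain, often a SPRY domain, usually picks the substrate. Type I interferon is known to raise many TRIM genes, and several TRIM proteins act in the pathways that sense viral nucleic acid, either as activators or as brakes. In the mouse, Trim5-like, Trim30 and Trim34 genes lie in a cluster on chromosome 7 that has expanded by local duplication.

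The series held 4 PUS10KO libraries (genotype label PUS10 KO) and 4 control libraries (genotype label WT), with numbers 1 to 4 in both. The PUS10 enzyme turns uridine of RNA into pseudouridine, and the series title ties it to tRNA fragments, retrotransposons and inflammation. All cells were embryonic fibroblasts grown in DMEM with serum and penicillin-streptomycin, and stranded total RNA libraries were sequenced. The sources used here do not give how Pus10 was disrupted, the age of the embryos or whether libraries came from separate cultures or animals. The p-values therefore measure the spread between these samples alone, and that spread may be technical.

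Total counts lay between 17561114 and 24563499 per library. Pus10 itself had 11.5 to 15.2 CPM in PUS10KO and 40.1 to 51.8 CPM in control (log2 fold change -1.74, adjusted p = 0.000189, edgeR). CPM are counts per 1000000 of the TMM-scaled library total. All 12 fibroblast markers had counts and 4 of them fell, with sums of 11929 to 18424 CPM in PUS10KO and 18355 to 23018 CPM in control. One of those that fell was Thy1, a surface glycoprotein, at 0 to 0.0551 CPM in PUS10KO and 20.8 to 23.0 CPM in control. The 7 lymphocyte and 6 epithelial markers were not among the genes of the table used here. Of 8 macrophage markers 4 were, with sums of 13.8 to 20.2 CPM in PUS10KO and 7.55 to 12.4 CPM in control. Of these, Cd14 rose, at 10.6 to 17.7 CPM in PUS10KO and 1.86 to 3.88 CPM in control, while Cd68, Csf1r and Lyz2 had log2 fold changes of -0.37, -0.34 and -1.32 and did not pass. The defining markers Ptprc and Adgre1 were not among the genes of the table. Endothelial markers (2 of 5 in the table) summed to 1.19 to 3.12 CPM in PUS10KO and 2.52 to 4.92 CPM in control. Skeletal muscle markers (3 of 8) summed to 1.63 to 4.08 CPM in PUS10KO and 10.2 to 153 CPM in control. Acta1 made most of the control sum, at 8.62 to 151 CPM, and fell. Des had a log2 fold change of -0.23 and did not pass, and Tnni1 was not tested. Neural markers (3 of 5) summed to 66.6 to 94.5 CPM in PUS10KO and 165 to 240 CPM in control. Nes fell, while Tubb3 and Map2 had log2 fold changes of 0.04 and -1.36 and did not pass. The part of other cell types in the results was not tested. Summed Y-linked transcripts were 150 to 199 CPM in PUS10KO and 0 to 0.164 CPM in control, so genotype and sex chromosome content cannot be told apart in any value below. In bulk RNA, fewer cells of a type and less RNA per cell cannot be told apart either.

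Of the 37 tested members, 6 rose in PUS10KO and 1 fell. Trim30a, Trim30d and Trim6, from the chromosome 7 cluster, rose, and so did Trim44, Trim11 and Trim29. Trim2 fell. The share that rose was 16.2%, against 5.9% of the 11909 genes tested, and the share that fell was 2.7%, against 7.11%, with a threshold of 0.05 on the adjusted p. Without PUS10KO 3 the count that rose was 3, and without PUS10KO 1 or 4 or control 2, 3 or 4 it was 4. In those fits 4.11% to 5.33% of all tested genes rose. The remaining 30 did not pass, and 11 members in all had an unadjusted p under 0.05. The median log2 fold change was 0.19 over the tested members and 0.01 over all tested genes, and 25 of the 37 values were above 0. The values ran from -1.78 for Trim66 to 3.64 for Trim29. Libraries of the 2 genotypes did not overlap for 7 of the 37 tested members, or 18.9%, against 20.3% of all tested genes.

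The low-count filter asked for at least 10 counts, scaled to library size, in at least 4 libraries. Trim29 and Trim6 passed it through the PUS10KO libraries alone, which all met the minimum while 0 control libraries did. These members thus entered the test only because they were high in PUS10KO. Both are counted in the 6 that rose and in the share of 16.2%. Trim66 met the minimum in 1 PUS10KO and 4 control libraries. Trim69 and Trim72 did not pass. Trim69, a SPRY member, had 5, 12, 9 and 9 counts in PUS10KO libraries 1 to 4, against 3, 8, 7 and 7 counts in control libraries 1 to 4. Trim72, a membrane-repair factor of muscle, had 22 counts over the PUS10KO libraries and 12 over the control libraries. Their libraries overlapped between genotypes.

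The same edgeR fit with the library number as a block called more genes. With it 12 members rose and 4 fell, 32.4% and 10.8% of those tested, where 19.1% of all genes rose and 19.9% fell. All 7 members named above were among these 16. DESeq2 without the block called 7 members that rose, adding Trim21, and 2 that fell, adding Trim66, against 9.39% and 10.5% of the genes it tested.

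**Figure D1:**
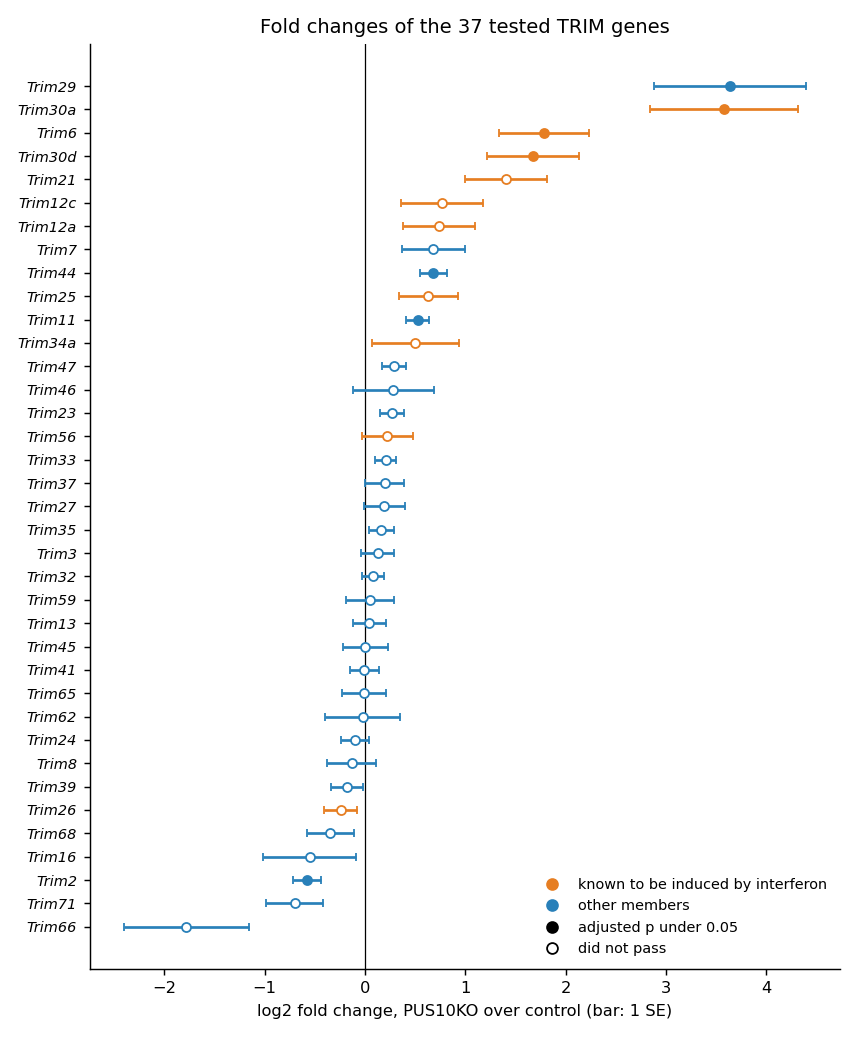
Log2 fold changes of the 37 tested TRIM genes, PUS10KO over control, with bars of 1 standard error from edgeR; orange marks genes known to be induced by interferon, filled points an adjusted p under 0.05. The 2 highest values, 3.64 for Trim29 and 3.58 for Trim30a, stand apart from the next, 1.79 for Trim6, and most members lie close to 0.

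Members known from earlier work to be induced by interferon were taken as a group of 17 symbols, of which 11 were in the table and 10 were tested. Trim30a, Trim30d and Trim6 rose, or 30%, against 5.9% of all tested genes, and the median log2 fold change was 0.75. Trim6 entered the test only through its PUS10KO libraries. By edgeR 0 fell, as by DESeq2 and limma voom, and 4 of the 10 had an unadjusted p under 0.05. Of the 10, 9 were higher in the PUS10KO library than in the control library of the same number for all 4 numbers. Trim26 was lower for all 4. Of the 27 tested members outside this group, 7 were higher and 4 were lower for all 4 numbers. How many of all tested genes were higher for all 4 was not counted. With the replicate block 7 of the 10 rose, or 70%, against 19.1% of all tested genes. Those added were Trim12a, Trim12c, Trim21 and Trim25. Among the 27 tested members outside this group 3 rose and 1 fell, and the median was 0.05. These were 11.1% and 3.7%, against 5.9% and 7.11% of all tested genes. Of these 3, Trim29 entered the test only through its PUS10KO libraries. With the block 5 rose and 4 fell, or 18.5% and 14.8%, against 19.1% and 19.9% of all tested genes. In the interferon-induced group the count of 3 that rose depended on single libraries. It was 1 without PUS10KO 1, 3 or 4 and without control 2, 3 or 4, leaving Trim30a. It was 4 without PUS10KO 2, with Trim21 added.

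Trim30a (ENSMUSG00000030921.17, chr7:104409025-104465193, minus strand, GRCm38) encodes a mouse SPRY-type TRIM protein known as a brake on Toll-like receptor signalling to NF-kB through loss of the adaptors TAB2 and TAB3. It had 34.8, 9.51, 13.8 and 27.2 CPM in PUS10KO libraries 1 to 4, against 4.53, 0.383, 0.721 and 1.44 CPM in control libraries 1 to 4. All 4 PUS10KO libraries lay above all 4 control libraries, and within both genotypes library 1 was the highest and library 2 the lowest. The means were 21.3 ± 11.7 CPM in PUS10KO and 1.77 ± 1.89 CPM in control (SD, n = 4 each). The edgeR fit gave a log2 fold change of 3.58 (SE 0.74), or 11.9-fold, with an adjusted p of 0.0133. Each of the 8 fits without 1 library kept the call, with log2 fold changes of 3.24 to 4.63 and an adjusted p of at most 0.0394 (edgeR).

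Trim30d (ENSMUSG00000057596.13, chr7:104470014-104507849, minus strand), its neighbour and close relative, had 14.8, 5.77, 10.8 and 14.7 CPM in PUS10KO, against 5.60, 1.37, 2.68 and 4.69 CPM in control. The genotypes did not overlap, though PUS10KO 2 lay only just above control 1. This was a log2 fold change of 1.67 (SE 0.46; edgeR adjusted p = 0.0429). The call held in 2 of the 8 fits that left out 1 library, those without PUS10KO 2 or control 1, and the adjusted p reached 0.110 (edgeR) in the others. The fit with the replicate block gave 0.000103 (edgeR, adjusted).

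Both genes carry the same run of bases just upstream of their start, shown here because it holds a match to the core of the interferon-stimulated response element (ISRE), a DNA element through which type I interferon raises its target genes. The letters searched were GAAANNGAAA on both strands of the 250 bases before each start in RefSeq's GRCm38.p6 annotation. In the lines below, 5′ to 3′ on the strand of the gene, capitals mark the match, which reads on the opposite strand in each. The coordinates are chr7:104465200-104465249 for Trim30a and chr7:104507861-104507910 for Trim30d, both minus strand. Those of Trim12c are chr7:104353363-104353398, minus strand, and those of Trim26 chr17:36836966-36837021, plus strand, with 2 matches that overlap.
Trim30a: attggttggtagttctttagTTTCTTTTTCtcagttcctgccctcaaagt
Trim30d: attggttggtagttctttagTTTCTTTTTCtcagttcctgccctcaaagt
Trim12c: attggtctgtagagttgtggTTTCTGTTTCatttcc
Trim26: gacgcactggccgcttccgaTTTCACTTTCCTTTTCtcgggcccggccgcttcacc

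The Trim30a and Trim30d lines are identical over their 50 bases, and the longest run the upstream windows of these genes shared was 118 bases. Trim12a and Trim12c shared a run of 71 bases, and every other combination of the 6 cluster members shared at most 9. The match began 36 bases before the start in Trim30a, 41 in Trim30d, 29 in Trim12c and 160 in Trim26. A promoter window was found for 31 of the 39 members, and these 4 were the members with a match. All 4 belong to the 11 interferon-induced members, each of which had a window. Over the genome 3.46% of 27025 genes held the letters in at least 1 window, and 2.98% of 32851 windows did. The palindrome TTCNNNGAA, the core of the gamma-activated site, was found for Trim45 and Trim46, and for 8.13% of all genes. A match is a description of these letters. Trim26 held it and its fold change was negative, and Trim6 and Trim21 did not hold it within this window.

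Trim6 (ENSMUSG00000072244.11, chr7:104218793-104235152, plus strand) stands at the other end of the cluster; in human cells TRIM6 builds free ubiquitin chains that activate the kinase IKK-epsilon. It was a low-level gene, with 1.16, 0.517, 1.48 and 1.84 CPM in PUS10KO and 0.243, 0.438, 0.412 and 0.335 CPM in control. These values rest on 103 counts over the PUS10KO libraries and 28 over the control libraries. The genotypes did not overlap, with PUS10KO 2 close to the highest control. The difference was 1.79 on the log2 scale (SE 0.45; edgeR adjusted p = 0.0298). The call held only without PUS10KO 2 among the 8 fits that left out 1 library (adjusted p up to 0.0817, edgeR), and limma voom gave an adjusted p of 0.0658.

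The other 3 measured genes of the cluster, Trim34a, Trim12a and Trim12c, were higher in PUS10KO for all 4 numbers without passing the test. Trim12c (chr7:104338754-104353362, minus strand), a relative of human TRIM5, had 13.6, 4.02, 5.91 and 8.12 CPM in PUS10KO and 7.25, 3.12, 4.53 and 3.64 CPM in control. Its genotypes overlapped, since control 1 exceeded PUS10KO 2 and 3. Its log2 fold change was 0.77 (SE 0.41; edgeR adjusted p = 0.278 without and 0.0140 with the block).

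Trim12a, another TRIM5 relative, had 4.08, 2.07, 4.05 and 5.52 CPM in PUS10KO and 2.53, 1.31, 2.83 and 2.68 CPM in control. PUS10KO 2 lay below 3 of the control libraries. Its log2 fold change was 0.74 (SE 0.36; edgeR adjusted p = 0.233 without and 0.0141 with the block). Trim34a had 4.08, 1.75, 2.49 and 3.08 CPM in PUS10KO and 2.97, 0.711, 2.06 and 2.25 CPM in control, or 0.50 higher on the log2 scale (SE 0.43; edgeR adjusted p = 0.516 without and 0.0750 with the block). Its genotypes overlapped too. Library 2 was the lowest of its genotype for each of these 3 genes.

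Over the 289 kb of the cluster the 6 tested members thus had a median log2 fold change of 1.22. Of these 3 rose and 0 fell, and 5 rose with the block, where 5.9% and 19.1% of all tested genes rose. The 3 include Trim6, which entered the test only through its PUS10KO libraries. The 63 other tested genes that start within 5 Mb of the cluster had a median of 0.32, with 5 that rose and 2 that fell, or 26 and 9 with the block. All tested genes of chromosome 7 had a median of 0.15. Near-identical transcript stretches limit how reads are split between the cluster members. The share of 50-base windows that also occur in another gene's transcripts was 59.7% for Trim34a (mostly shared with Trim34b and an antisense gene), 33.7% for Trim12c, 10.5% for Trim12a, 7.49% for Trim30d, 5.98% for Trim30a and 1.5% for Trim6. The values of Trim34a and Trim12c are therefore uncertain as values of single genes. For Trim30a every shared window was shared with Trim30d, so part of the counts of this pair may be exchanged between them.

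**Figure D2:**
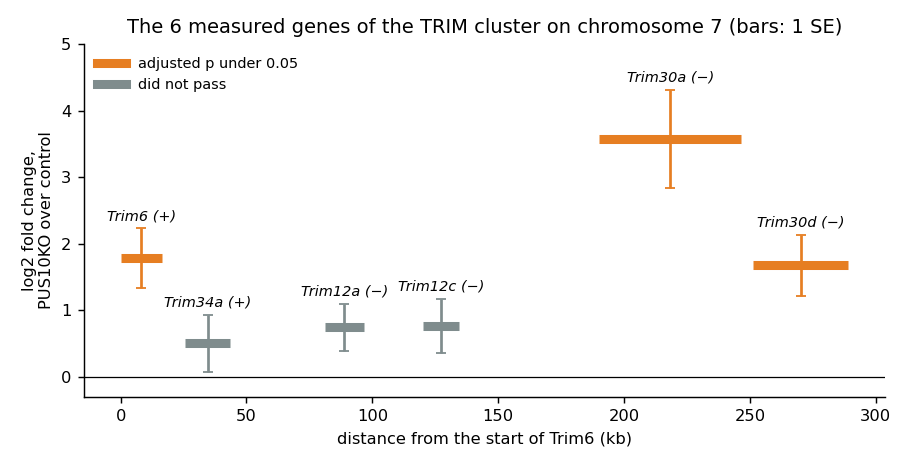
Log2 fold change (PUS10KO over control, bars of 1 standard error) of the 6 measured TRIM genes of the chromosome 7 cluster against their position in kb from the start of Trim6; thick lines span each gene and signs give its strand. All 6 values lie above 0, from 0.50 for Trim34a to 3.58 for Trim30a, and the 3 orange genes passed the test.

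Of the interferon-induced members outside the cluster, Trim21 and Trim25 came closest to the threshold or passed it with the block. Trim21 (ENSMUSG00000030966.13, chr7:102557921-102565486, minus strand), the cytosolic receptor for antibody-coated virus, had 12.8, 4.93, 12.2 and 14.9 CPM in PUS10KO and 4.33, 1.92, 5.25 and 5.41 CPM in control. PUS10KO 2 lay within the control range and the other PUS10KO libraries lay above it. A log2 fold change of 1.40 resulted (SE 0.41; edgeR adjusted p = 0.0549). With the block the edgeR adjusted p was 0.000126, and DESeq2 gave 0.00612 without it.

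Trim25 (ENSMUSG00000000275.16, chr11:88999376-89020293, plus strand), a ubiquitin ligase of the RNA sensor RIG-I, had 23.7, 17.7, 17.9 and 18.7 CPM in PUS10KO and 21.1, 11.5, 10.3 and 7.52 CPM in control. Control 1 lay among the PUS10KO libraries and the other control libraries below them. Its log2 fold change was 0.63 (SE 0.30; edgeR adjusted p = 0.218 without and 0.0130 with the block), and without control 1 it was 1.01 and passed.

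The remaining tested members of the group did not pass with or without the block. Trim26, a ligase reported to act on IRF3, had 27.7, 18.9, 20.9 and 22.4 CPM in PUS10KO and 32.6, 24.0, 26.6 and 23.0 CPM in control (log2 fold change -0.24, SE 0.17, adjusted p = 0.410, edgeR). Trim56, a RING protein of the STING and double-stranded RNA pathways, had 42.0, 26.5, 24.7 and 22.3 CPM in PUS10KO and 34.5, 23.9, 22.4 and 18.2 CPM in control (log2 fold change 0.22, SE 0.25, adjusted p = 0.639, edgeR). The genotypes overlapped for both genes.

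Within both genotypes the interferon-induced members followed the library number. Library 2 was the lowest PUS10KO library for 9 of the 10 tested members and the lowest control library for 6. Library 1 was the highest for 7 of the 10 in each genotype. Summed over the 11 measured members the level was 179, 92.2, 115 and 139 CPM in PUS10KO libraries 1 to 4, and 116, 69.1, 78.0 and 69.5 CPM in control libraries 1 to 4. Control 1 thus exceeded PUS10KO 2 and 3 in this sum, while within each number PUS10KO was higher. Of the other 27 tested members 5 had their lowest PUS10KO value in library 2 and 10 their lowest control value. Library 1 was the highest PUS10KO library for 13 of these 27 and the highest control library for 7. The sum over all 39 members was also highest in library 1, at 1775 CPM in PUS10KO and 1519 CPM in control. A high library 1 was thus not confined to the interferon-induced members.

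**Figure D3:**
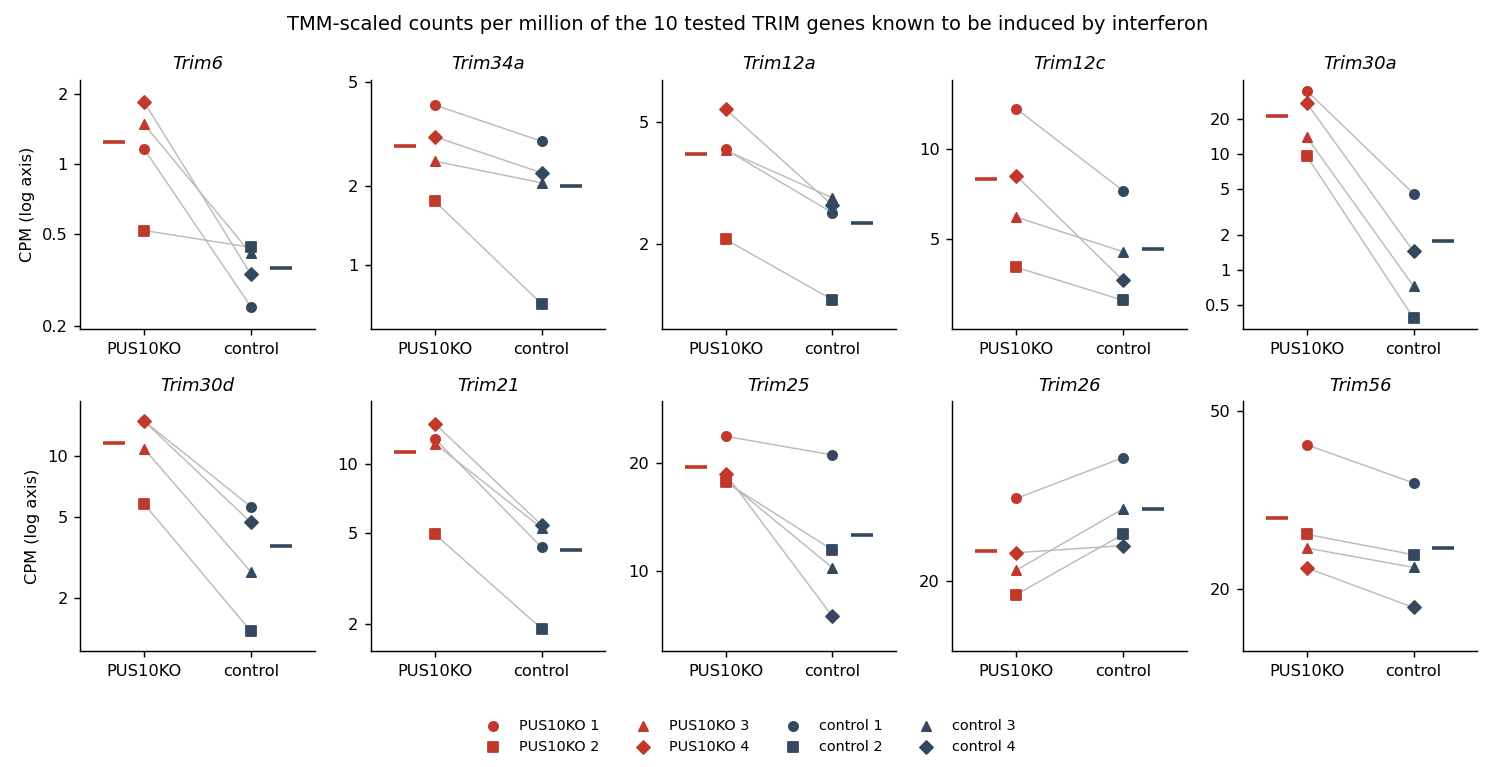
TMM-scaled CPM (log axis, a separate scale per gene) of the 10 tested TRIM genes known to be induced by interferon in each PUS10KO and control library; grey lines join libraries of the same number and short bars are genotype means. Every line falls toward control except in Trim26, where all 4 rise, and library 2, drawn as squares, is the lowest PUS10KO library in each panel but that of Trim56, where library 4 is.

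Outside the interferon-induced group, Trim44, Trim29 and Trim11 rose and Trim2 fell. Trim44 (ENSMUSG00000027189.16, chr2:102300119-102407828, minus strand) lacks a RING finger, carries a zinc finger of the ubiquitin protease type and is known to stabilise the antiviral adaptor MAVS. It had 176, 156, 146 and 139 CPM in PUS10KO, against 116, 92.3, 89.3 and 87.5 CPM in control. The lowest PUS10KO library lay above the highest control library, and the differences between libraries of the same number were 0.60, 0.76, 0.71 and 0.67 on the log2 scale. The means were 154 ± 15.8 CPM in PUS10KO and 96.3 ± 13.3 CPM in control (SD, n = 4 each). By edgeR this was 0.68 on the log2 scale (SE 0.13, adjusted p = 0.0106), a call kept in each of the 8 fits without 1 library.

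Trim29 (ENSMUSG00000032013.6, chr9:43310848-43336115, plus strand) also lacks a RING finger and is best known from epithelia and from alveolar macrophages of the mouse, where it dampens innate signalling. It had 38, 34, 25 and 15 counts in PUS10KO libraries 1 to 4, against 5, 0, 3 and 0 counts in control libraries 1 to 4. In CPM these were 2.09, 1.35, 1.06 and 0.812 in PUS10KO and 0.243, 0, 0.155 and 0 in control, so every PUS10KO library lay above every control library at a low level. The fitted log2 fold change was 3.64 (SE 0.76; edgeR adjusted p = 0.0140), and each of the 8 fits without 1 library kept the call, with values of 3.24 to 4.54. Its size rests on 8 control counts in all.

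Trim11 (ENSMUSG00000020455.16, chr11:58978093-58991458, plus strand), a SPRY ligase known in human cells to dissolve protein aggregates, had 40.4, 37.1, 38.9 and 32.9 CPM in PUS10KO and 26.7, 23.5, 27.3 and 26.1 CPM in control. The genotypes did not overlap. They differed by 0.53 on the log2 scale (SE 0.12; edgeR adjusted p = 0.0178). Of the fits without 1 library, that without PUS10KO 3 lost the call (edgeR adjusted p = 0.0601). All tested genes of chromosome 11 had a median log2 fold change of 0.16, those of chromosome 2, with Trim44, 0.08, and those of chromosome 9, with Trim29, -0.15.

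Trim2 (ENSMUSG00000027993.16, chr3:84160439-84306877, minus strand) was the member that fell. It belongs to the NHL class, whose C-terminal propeller binds RNA or protein, and in mouse neurons it ubiquitinates the light neurofilament subunit. The 4 PUS10KO libraries had 28.6, 21.6, 23.5 and 21.3 CPM, against 39.9, 31.4, 35.6 and 34.7 CPM in control, with no overlap. Its log2 fold change was -0.57 (SE 0.14; edgeR adjusted p = 0.0267). The call held without PUS10KO 1 and without control 2, and was lost without each of the other 6 libraries (adjusted p up to 0.0770, edgeR). It was also lost when libraries were scaled by their totals alone, at -0.47 (edgeR adjusted p = 0.0583), a scaling under which the median of all genes was 0.12 in place of 0.01.

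**Figure D4:**
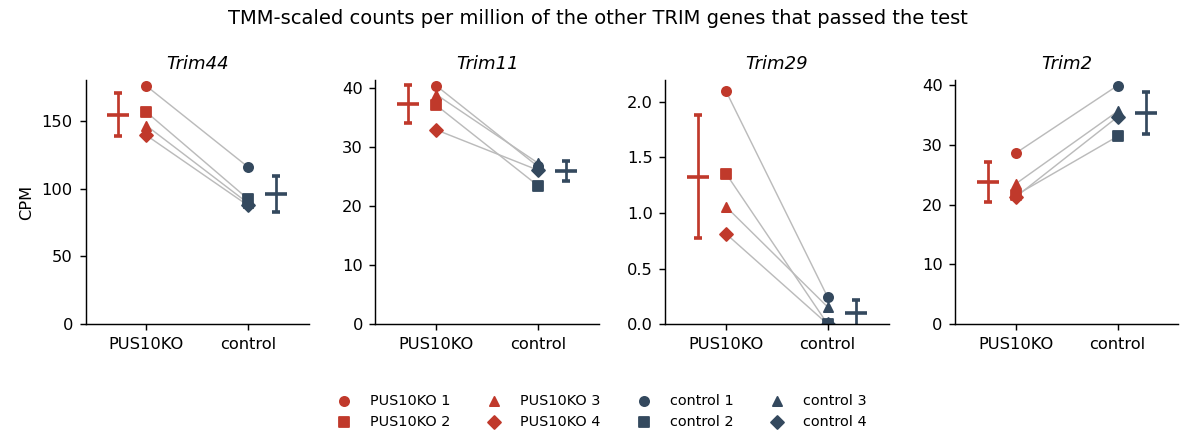
TMM-scaled CPM (axes from 0) of Trim44, Trim11, Trim29 and Trim2 in each PUS10KO and control library; grey lines join libraries of the same number, and the crossbars give the mean ± SD of 4 libraries. The genotypes do not overlap in any of the 4 panels, with Trim2 lower in PUS10KO and the others higher.

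Each member was placed in a single class, for most by the C-terminal domain, and the SPRY class was the largest, with 21 members and 19 tested. Members without a RING finger and the COS member were filed apart, whatever their C-terminal domain. The values below are thus for the class as filed, which may not hold every SPRY protein. Among those filed apart, Trim16 had a log2 fold change of -0.55 and Trim46 had 0.28. Of these 4 rose (Trim30a, Trim30d, Trim6 and Trim11), or 21.1%, against 5.9% of all tested genes. The median log2 fold change was 0.50. The class overlaps the interferon-induced group in Trim6, Trim12a, Trim12c, Trim21, Trim25, Trim26, Trim30a, Trim30d and Trim34a. Of the 4 that rose, Trim11 alone lay outside that group, and Trim6 entered the test only through its PUS10KO libraries. By edgeR 0 of the 19 fell, as by DESeq2 and limma voom, and 6 of the 19 had an unadjusted p under 0.05. Over the fits without 1 library the count that rose was 1 to 5, lowest without PUS10KO 3. With the block 10 rose, or 52.6%, against 19.1% of all tested genes. Those added were Trim12a, Trim12c, Trim21 and Trim25, described above, and Trim7 and Trim47. Trim7, a partner of the glycogen primer glycogenin, had 8.10 ± 3.12 CPM in PUS10KO and 5.05 ± 1.46 CPM in control (SD, n = 4 each; log2 fold change 0.68; edgeR adjusted p = 0.213 without and 0.00989 with the block). An antisense gene and a coding gene overlap 6.46% and 1.84% of its exonic bases on the other strand. With no strand setting stated, reads of these stretches cannot be told from reads of those genes. Trim47 had a log2 fold change of 0.29 (edgeR adjusted p = 0.170 without and 0.0266 with the block) and shares 225 exonic bases with Trim65 on the same strand. Trim65, a ligase of the RNA sensor MDA5 in human cells, was at -0.0048 (edgeR adjusted p = 0.994). The other tested SPRY members, Trim27, Trim35, Trim39, Trim41, Trim62 and Trim68, had log2 fold changes from -0.34 for Trim68 to 0.19 for Trim27, and did not pass.

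The NHL class had 4 members, Trim2, Trim3, Trim32 and Trim71, with a median of -0.25. Trim71, a repressor of mRNAs in stem cells and embryos and a classical let-7 target, had 7.44, 7.36, 5.02 and 4.00 CPM in PUS10KO and 12.6, 11.0, 8.76 and 6.42 CPM in control. The genotypes overlapped, yet PUS10KO was lower within every number. Its log2 fold change was -0.70 (SE 0.28; edgeR adjusted p = 0.153 without and 0.00304 with the block). A coding gene on the other strand overlaps 135 of its exonic bases. Trim32, a ligase mutated in a human limb-girdle muscular dystrophy, stood at 0.08, and Trim3 at 0.13.

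The PHD-bromodomain members Trim24, Trim33 and Trim66 are chromatin readers. Trim33, which also acts on Smad4, stood at 0.21 on the log2 scale (edgeR adjusted p = 0.255) and Trim24 had -0.10. Trim66, known from spermatids, was near the detection limit, with 0.220, 0.835, 0.211 and 0.433 CPM in PUS10KO and 0.633, 0.711, 2.63 and 2.01 CPM in control. PUS10KO 2 lay above control 1 and 2. The fitted value was -1.78 on the log2 scale (SE 0.62; edgeR adjusted p = 0.104 without and 0.0388 with the block), and DESeq2 gave an adjusted p of 0.0447.

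Of the 3 members filed as the class without a RING finger, Trim44 and Trim29 rose, where 5.9% of all tested genes rose. Trim29 entered the test only through its PUS10KO libraries. Members filed in other classes were not counted here, even where they may lack a RING finger. Trim16, which helps clear damaged lysosomes, was the class's other member. Its libraries held 111, 69.4, 49.5 and 42.4 CPM in PUS10KO and 190, 105, 53.3 and 51.2 CPM in control. In both genotypes library 1 was the highest and libraries 3 and 4 were the lowest, so the genotypes overlapped, while PUS10KO was lower within each number. Its log2 fold change was -0.55 (SE 0.46; edgeR adjusted p = 0.505 without and 0.0188 with the block), and it ran from -0.89 to -0.02 over the fits that left out 1 library. It shares 237 exonic bases with Fbxw10 on the same strand.

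The members with a domain of their own kind did not pass the test with or without the block. Trim23, which ends in an ARF-type GTPase domain, stood at 0.27 on the log2 scale (SE 0.12; edgeR adjusted p = 0.195). Trim37 (peroxisomes and centrosomes), Trim59, Trim13 (an endoplasmic reticulum protein) and Trim45 had log2 fold changes from 0.0046 for Trim45 to 0.20 for Trim37. Trim46, a microtubule organiser of the axon's initial segment and the tested member of the COS class, had 0.28 (SE 0.40, adjusted p = 0.713, edgeR), with 239 exonic bases under Krtcap2 on the other strand. Trim8, which like Trim56 has no C-terminal domain, had -0.13 (SE 0.24, adjusted p = 0.788, edgeR).

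Levels were compared between members per kilobase of exon. Trim35, a SPRY member, had the highest level in both genotypes, 78.1 ± 8.05 CPM per kilobase in PUS10KO and 69.7 ± 5.48 in control (SD, n = 4 each here and below). Trim47 followed with 43.3 ± 3.01 in PUS10KO and 35.5 ± 4.14 in control. The next places in control, Trim59 (27.7 ± 7.36 in PUS10KO and 26.7 ± 7.74 in control), Trim16 (14.9 ± 6.79 in PUS10KO and 21.9 ± 14.2 in control) and Trim27 (25.0 ± 6.30 in PUS10KO and 21.9 ± 4.24 in control), did not differ from each other beyond their spread. Trim59 is a membrane-anchored RING protein, and Trim27 acts with the retromer on endosomes. The fold changes of these 5 members did not pass the test.

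Per library, Trim35 had 411, 353, 322 and 357 CPM in PUS10KO and 331, 286, 326 and 345 CPM in control (log2 fold change 0.16, SE 0.12, adjusted p = 0.445, edgeR). Trim47 had 127, 122, 107 and 117 CPM in PUS10KO and 101, 110, 92.7 and 83.9 CPM in control. The genotypes overlapped for both. Trim59 had 103, 123, 75.1 and 70.4 CPM in PUS10KO and 87.3, 127, 75.1 and 69.3 CPM in control, and thus followed the library number closely. Trim27 had 167, 169, 106 and 109 CPM in PUS10KO and 116, 153, 114 and 97.8 CPM in control, with libraries 1 and 2 above 3 and 4 in PUS10KO. At the low end stood Trim29, at 0.382 ± 0.160 CPM per kilobase in PUS10KO and 0.0286 ± 0.0347 in control. Trim30a had rank 15 of the 39 members in PUS10KO, at 5.19 ± 2.84 CPM per kilobase, and rank 32 in control, at 0.430 ± 0.460. Summed over the 39 members the level was 1448 to 1775 CPM in PUS10KO and 1290 to 1519 CPM in control, and the ranges overlapped, while within each number the sum was higher in PUS10KO.

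**Figure D5:**
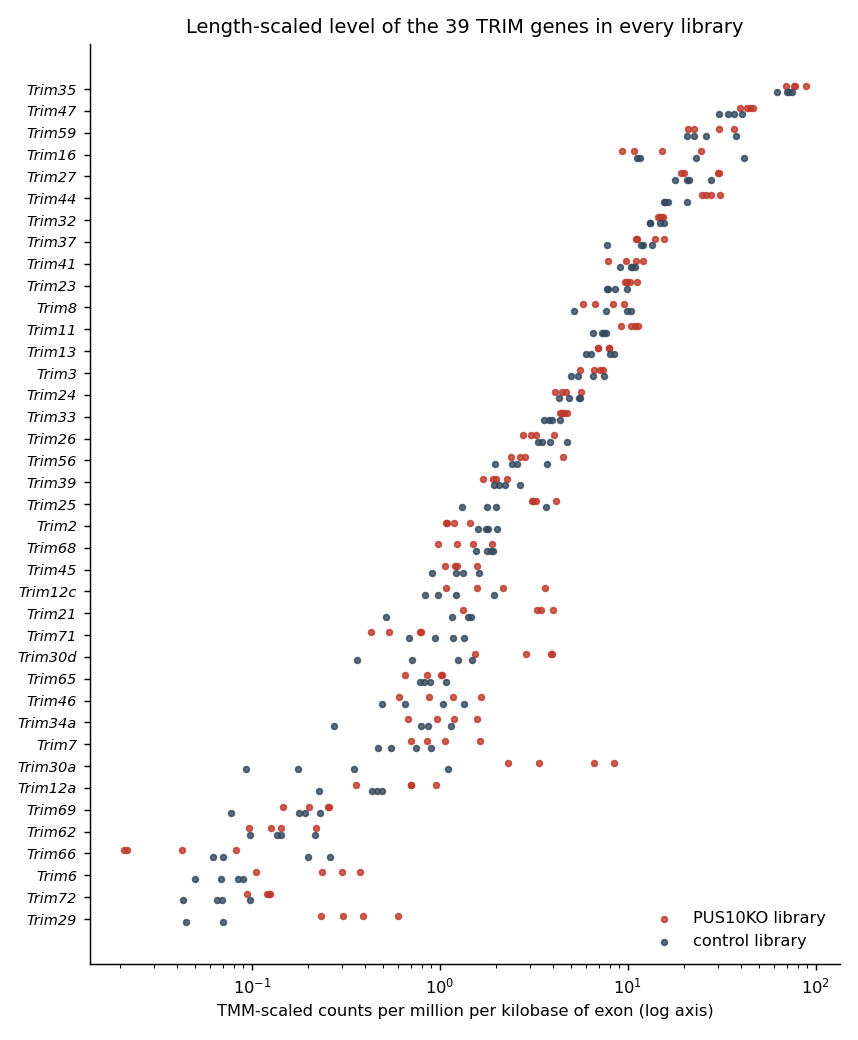
Level of the 39 TRIM genes in every library, in TMM-scaled CPM per kilobase of exon on a log axis, ordered by the control mean; red points are PUS10KO libraries and dark points control libraries, and the 2 control libraries of Trim29 at 0 are not drawn. Most members have overlapping genotypes, while Trim30a, Trim30d, Trim29, Trim6, Trim44 and Trim11 show red points to the right of all dark ones and Trim2 to the left.

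Related genes outside the naming rule were read from lists. Of 12 further TRIM-type genes 6 were tested, 1 rose and 0 fell, where 5.9% of all tested genes rose and 7.11% fell. Of the 6, 2 had an unadjusted p under 0.05 and 0 fell by DESeq2. With the block 2 rose and 0 fell, where 19.1% of all tested genes rose and 19.9% fell. The gene that rose without the block was Mid1, a microtubule-bound COS-class ligase that controls phosphatase 2A. It had 23.7 ± 9.10 CPM in PUS10KO and 8.20 ± 2.84 CPM in control (SD, n = 4 each, log2 fold change 1.53, edgeR adjusted p = 0.0180). Pml, the interferon-induced organiser of nuclear bodies, had 37.8 ± 12.3 CPM in PUS10KO and 23.1 ± 5.42 CPM in control (log2 fold change 0.71; edgeR adjusted p = 0.122 without and 0.00911 with the block). Trim28 stood at 0.15 (adjusted p = 0.601, edgeR).

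Of 16 tested genes of the ubiquitin machinery that TRIM ligases use, 0 passed edgeR's test, with 2 at an unadjusted p under 0.05, and DESeq2 called 1 that fell. With the block 1 rose, Ube2k, and 3 fell, Ube2v2, Ube2w and Sqstm1. Over all tested genes 19.1% rose and 19.9% fell with the block. Ube2v2 had the largest log2 fold change of the 16, -0.73 (edgeR adjusted p = 0.120 without and 0.00403 with the block). Ube2w had an adjusted p of 0.00896 with the block (edgeR). The E2 enzymes Ube2n and Ube2w, which extend and start ubiquitin chains for several TRIM proteins, had log2 fold changes of -0.08 and -0.57 (adjusted p = 0.803 and 0.0676, edgeR).

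Of 26 tested genes of antiviral sensing and interferon response, 4 rose and 1 fell, with a median of 0.24. With the block 12 rose and 1 fell. Over all tested genes 5.9% rose and 7.11% fell, or 19.1% and 19.9% with the block. Ddx58, which encodes the RIG-I sensor modified by Trim25, rose by 1.42 on the log2 scale (edgeR adjusted p = 0.0115). Sting1, on whose protein Trim56 acts, rose by 1.07 (edgeR adjusted p = 0.0175). The nucleic acid sensor gene Zbp1 rose by 3.49 and the transcription factor gene Irf5 by 0.86 (edgeR adjusted p = 0.0231 and 0.0300). Tab2, whose protein Trim30a targets in the mouse, fell to 46.0 ± 2.77 CPM in PUS10KO, against 79.5 ± 9.22 CPM in control (SD, n = 4 each; log2 fold change -0.79, adjusted p = 0.00310, edgeR). Its partner Tab3 stood at 0.03 (adjusted p = 0.942, edgeR). Irf9, which encodes a DNA-binding protein of the ISRE, had a log2 fold change of 1.14 (edgeR adjusted p = 0.0855 without and 7.11e-05 with the block).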

How the data were processed

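The authors deposited raw counts, whole numbers of reads per gene in 8 libraries, and a normalized table whose values look like log2 values. STAR 2.7.8a, DESeq2 and the build mm10 are named in the submitters' processing notes; neither the read counter nor its strand setting is stated in the sources used here. In the deposited log2 table the values of PUS10KO and control libraries with the same number summed to the same value for every gene (tolerance 1e-06), so differences between numbers had been taken out.

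Counts were fitted in R 4.3.3 with edgeR 4.0.16 (filterByExpr, TMM scaling, robust quasi-likelihood test, 11909 genes, genotype as the only term, Benjamini-Hochberg adjustment). Alternatives were RLE size factors or library totals as scaling, DESeq2 1.42.0, limma 3.58.1 (voom, or the deposited log2 values), no filter, a replicate block, and each library left out. The scripts were checked on simulated counts. Libraries of a genotype differed beyond sampling noise (chi-square per degree of freedom at least 18.2).

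What a number shares is not stated in the labels. Across genes, which are not independent replicates, deviations from the mean of the genotype had r = 0.696, 0.748, 0.656 and 0.700 for same-numbered libraries and at most 0.309, 0.0348, 0.599 and 0.521 for others. Each library was closest to its own number, and the numbers were taken as pairs from the counts alone.

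Positions and exon lengths came from GENCODE M21 (GRCm38) and promoters from RefSeq GRCm38.p6. GENCODE M21 has 67 protein-coding genes that fit the naming rule, of which 28 were not analysed here. Values by library are given for called members, the interferon-induced list and the 5 highest in control, and for Trim66 and Trim71, chosen after their values were seen. Members, lists and tests were chosen with earlier results of these data known.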

Additional observations from a re-analysis of the deposited data

Results flagged for a closer look

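For 20 of the members given by library (not Trim66 and Trim71), the 4 libraries of each genotype were screened for 1 far from the other 3, by Dixon's ratio of the gap to the whole range with a critical value of 0.829. Of the 40 groups screened 2 passed it, which is about the 1 in 20 that chance gives. Trim44 had 115.9 CPM in control 1, where the other control libraries had 87.5 to 92.3 CPM, a ratio of 0.831. Trim25 had 23.7 CPM in PUS10KO 1, where the other PUS10KO libraries had 17.7 to 18.7 CPM, a ratio of 0.840. Without control 1 Trim44 stayed called, as in every fit that left out 1 library.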

How the results depend on the processing

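Size-factor scaling and no low-count filter gave the same 7 calls as TMM with the filter. Library-total scaling gave 7 members that rose and 0 that fell, where 7.28% of all tested genes rose and 5.22% fell. The members' median was then 0.30 where all genes had 0.12, and Trim47 was added and Trim2 lost. DESeq2 gave 7 and 2, against 9.39% and 10.5% of all genes it tested. With limma voom it was 5 and 1, without Trim6, against 6.01% and 6.93%. The replicate block gave 12 and 4, against 19.1% and 19.9%. The deposited log2 values with that block gave 13 and 3, against 19.5% and 19.5%. The block changed no call of the 7. Leaving out 1 library gave 3 to 7 members that rose, 0 or 1 that fell, and a median of 0.10 to 0.21. Over these fits 4.11% to 5.33% of all tested genes rose and 4.35% to 6.06% fell. Uncalled values changed sign in some of these fits: Trim56 ran from -0.013 without PUS10KO 1 to 0.44 without control 1. Trim59 ran from -0.12 without PUS10KO 2 to 0.27 without control 2, with -0.0010 without PUS10KO 1, -0.015 without control 3 and -0.040 without control 4. The cause of these changes was not tested. Per longest transcript, Trim27 (27.9) and Trim16 (25.6) changed places in control. Among the called members depth limits Trim29 and Trim6 most, whose control values rest on 8 and 28 counts in all.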
